A study of Mus musculus with 3 samples.

Results

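Transcripts of 9 genes of the JAK-STAT pathway, 6 STAT transcription factors (Stat2, Stat3, Stat4, Stat5a, Stat5b and Stat6) and 3 JAK kinases (Jak1, Jak2 and Jak3), were examined in T lymphocytes of the mouse spleen after 15 h of culture with LZ-8. The genes were taken by symbol from the table of read counts, where all 9 of the 9 were found among 44788 symbols. Janus kinases sit on the inner ends of cytokine receptor chains. When a cytokine draws the chains together, the kinases phosphorylate each other, the receptor and then a STAT protein, which pairs with another STAT, enters the nucleus and binds DNA. In T cells this route carries the signals of IL-2, IL-7 and IL-15 (mainly through Jak1, Jak3 and the STAT5 proteins), of IL-4 (Stat6), of IL-12 (Jak2 and Stat4), of IL-6 and IL-21 (Stat3) and of type I interferon (Stat2), and SOCS proteins shut it off.

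RNA was sequenced in 3 libraries that form 1 group, LZ-8 for 15h. LZ-8 is an immunomodulatory protein of the fungus Ganoderma lucidum that stimulates T cells. The cells came from the spleens of female BALB/c mice of 6 to 8 weeks, were isolated with beads against CD90.2, a pan T cell surface protein, and were kept in medium with 2% serum. All 3 libraries had the same treatment, so the values describe treated cells only, and untreated cells were not analysed here. Whether each replicate is a mouse or culture of its own is not in the labels, so p-values and SDs measure the spread between these libraries, which may be technical.

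The libraries held 12669690 to 19041670 counts. All 12 T cell markers examined had a mean above 100 CPM (counts per 1000000 counts of a library), with sums of 4705 to 4909 CPM. The markers of B cells summed to 17.8 to 21.0 CPM and those of neutrophils to 0.158 to 0.680 CPM. Those of monocytes and macrophages summed to 3.63 to 4.76 CPM, mostly from Cd68 (4.08 CPM). Natural killer cell markers summed to 18.9 to 21.6 CPM, mostly from Eomes (17.5 CPM). Dendritic cell markers summed to 9.72 to 11.8 CPM, mostly from Zbtb46 (9.49 CPM), and erythroid and platelet markers to 9.87 to 10.2 CPM, mostly from Itga2b (8.25 CPM). Stromal and endothelial markers summed to 59.9 to 64.2 CPM, nearly all from Pecam1 (61.8 CPM), which T cells also express. Of 52 markers of 7 other cell types, 16 had no read, among them Csf1r, C1qa, C1qc and Fcgr1. Leukocytes of other kinds also express JAK and STAT genes, and fewer cells of a type cannot be told apart from less RNA per cell in such bulk libraries.

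Stat5a and Stat5b, which encode the pair of STAT5 proteins, lie side by side on chromosome 11, and their coding sequences were 90.8% identical over 2291 aligned bases (GRCm38, GENCODE annotation). Stat5a is at chr11:100859351-100885169 on the plus strand and Stat5b at chr11:100780731-100850724 on the minus strand. Stat3, at chr11:100885098-100939540 on the minus strand, ends within Stat5a, and the last exons of both share 72 bases. The longest coding run that Stat5a and Stat5b share without a difference is 324 bases long and spans exons 6 to 8 of both genes. Its exon 7 part is shown because a read from it cannot be given to either gene. In Stat5a it lies at chr11:100874339-100874490 and in Stat5b at chr11:100798234-100798385.
Stat5a and Stat5b, exon 7, 152 bases: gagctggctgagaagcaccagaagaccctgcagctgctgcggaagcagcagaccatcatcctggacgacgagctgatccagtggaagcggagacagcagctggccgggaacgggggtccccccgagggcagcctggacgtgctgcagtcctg
The 60 coding bases with the most differences, at coding positions 85 to 144 across exons 2 and 3 of both genes, show what separates the reads elsewhere. Capitals mark the 19 positions at which the genes differ.
Stat5a: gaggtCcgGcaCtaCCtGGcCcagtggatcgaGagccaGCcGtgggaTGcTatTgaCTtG
Stat5b: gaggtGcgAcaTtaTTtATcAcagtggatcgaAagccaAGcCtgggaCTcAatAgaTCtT
Of the 31-base words in Stat5a transcripts, 11.5% also occur in Stat5b, and of those in Stat5b 15.1% also occur in Stat5a. Levels of this pair are uncertain to that extent, since the treatment of reads that fit several places is not given in the sources used here.

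The other members share less with genes that are in the count table. Stat6 (chr10:127642986-127660957) overlaps Nab2, a corepressor gene on the opposite strand with 89.5 ± 3.41 CPM (SD, n = 3), by 40 exon bases. Stat2 is on the same chromosome at chr10:128270559-128292849. Stat4 (chr1:51987148-52107189) shares 23.7% of its 31-base words with other genes, all of them with Gm28177, which has no row in the table. Jak3 (chr8:71676296-71690575) shares 404 exon bases with Insl3, a hormone gene on the same strand read at 9.42 ± 0.0982 CPM. Jak2 (chr19:29251828-29313080) shares no word with another gene, and Jak1 (chr4:101152367-101265282) shares 0.027%. Jak1 overlaps Raver2 on the opposite strand, a gene read at 0.857 ± 0.154 CPM, by 4 exon bases. Gm3940 within Stat4 and Gm24468 and Gm12785 within Jak1 share 0 exon bases with them. The use of strand in counting is not given in the sources used here, so reads in overlaps on opposite strands may belong to either gene. Reads in the overlap of Jak3 and Insl3 may too, since strand cannot separate genes on the same strand.

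All 9 genes were abundant. Each had a mean of at least 100 CPM, a level that 5.74% of all symbols reached, and the median of the 9 means was 329.8 CPM. For comparison, the 13530 genes with a mean of at least 1 CPM had a median of 26.9 CPM. Exact 95% Poisson intervals are given per library below where the libraries differed, and they cover counting error only.

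Stat5a, the STAT5 form known for its role in mammary gland, had 11206, 7005 and 8319 reads in replicates 1, 2 and 3. These are 588.5, 552.9 and 565.3 CPM, a mean of 568.9 ± 18.1 CPM (SD, n = 3). Replicate 1 stood highest, and its interval of 577.7 to 599.5 CPM did not meet that of replicate 2, 540.0 to 566.0 CPM. Stat5b, the form that carries much of the growth hormone and IL-2 signal, had 6344, 4071 and 4929 reads, or 333.2, 321.3 and 334.9 CPM. Replicate 2 was the lowest for this gene too, with an SD of 7.41 CPM against the 4.68 CPM that counting error alone gives.

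Stat6, the factor that IL-4 activates, had 7995, 5470 and 6322 reads, or 419.9, 431.7 and 429.6 CPM. Its mean was 427.1 ± 6.33 CPM, with a counting error of 5.33 CPM. Stat3, activated by IL-6, IL-10 and IL-21, had 7068, 4650 and 5398 reads, or 371.2, 367.0 and 366.8 CPM. The 3 libraries were nearly equal for Stat3, with an SD of 2.47 CPM that was below its counting error of 4.95 CPM.

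Stat4, the factor of IL-12 signalling, and Stat2, the partner of Irf9 in the interferon-stimulated complex, had the fewest reads of the 9 genes. Stat4 had 2133, 1447 and 1649 reads, or 112.0, 114.2 and 112.1 CPM. Stat2 had 2230, 1455 and 1687 reads, or 117.1, 114.8 and 114.6 CPM. Their SDs, 1.25 and 1.37 CPM, were below the counting errors of 2.74 and 2.77 CPM, so no difference between the libraries was detectable at this depth.

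Among the kinases, Jak1, which serves most cytokine receptors of T cells, had 9346, 6166 and 6741 reads, or 490.8, 486.7 and 458.1 CPM. Replicate 3 was the lowest, and its interval of 447.2 to 469.1 CPM lay below those of replicate 1 (480.9 to 500.9 CPM) and replicate 2 (474.6 to 499.0 CPM). Jak3, the kinase bound to the common gamma chain, had 5587, 4034 and 4782 reads, or 293.4, 318.4 and 325.0 CPM. Replicate 1 was the lowest here, and its interval of 285.8 to 301.2 CPM lay below those of replicate 2 (308.7 to 328.4 CPM) and replicate 3 (315.8 to 334.3 CPM). Jak2, used by the IL-12 and interferon-gamma receptors, had 4755, 3134 and 3565 reads, or 249.7, 247.4 and 242.3 CPM, with an SD of 3.81 CPM that was below its counting error of 4.05 CPM.

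**Figure D1:**
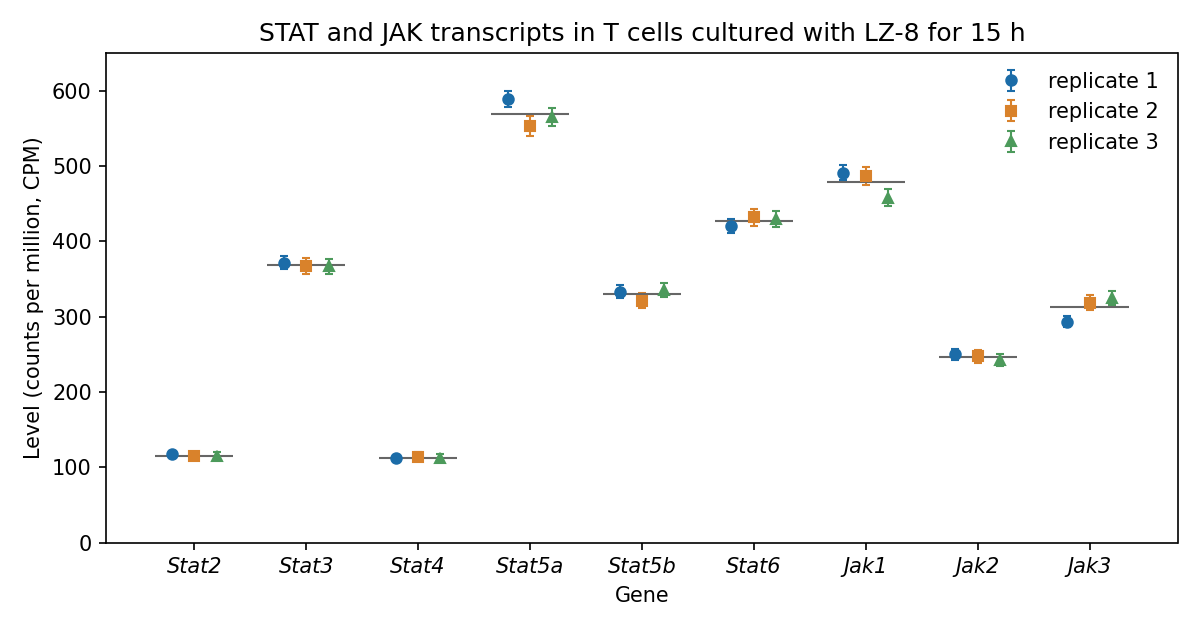
Level of each gene in CPM (vertical axis, from 0) in replicates 1, 2 and 3 (circle, square, triangle), with exact 95% Poisson intervals and the mean as a line. Replicate 1 stands apart for Jak3 and replicate 3 for Jak1. Stat5a is highest in replicate 1 and lowest in replicate 2, whereas the 3 points nearly coincide for Stat2, Stat3 and Stat4.

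To compare genes with each other, CPM was divided by the length of all annotated exon bases of a gene in kilobases. On this scale Stat6 was highest at 97.0 ± 1.44 CPM per kb, followed by Stat5a at 79.8 ± 2.53, Jak1 at 66.2 ± 2.47, Stat5b at 59.5 ± 1.34 and Jak3 at 58.3 ± 3.11 CPM per kb. Jak2 at 49.0 ± 0.758, Stat3 at 38.7 ± 0.259, Stat4 at 29.1 ± 0.324 and Stat2 at 19.5 ± 0.232 CPM per kb came after. The ranges of Stat5b (58.0 to 60.5) and Jak3 (54.8 to 60.7) overlapped, and these neighbours in the order did not differ beyond their spread. All other neighbours had separate ranges over the 3 libraries. Stat6 lay above 95.5% and Stat2 above 73.5% of the 12797 genes of at least 1 CPM that had an exon length.

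The order depended on the length used. Per kilobase of the longest annotated transcript, Stat5a was first at 143.7 ± 4.57 CPM per kb and Stat6 second at 113.1 ± 1.68, and Stat3 (61.0 ± 0.408) moved above Jak2 (49.0 ± 0.758). Jak3 (77.1 ± 4.11) stood above Stat5b (63.3 ± 1.42) with separate ranges. Stat4 and Stat2 were the lowest 2 by either length, at 37.8 ± 0.421 and 26.3 ± 0.312 CPM per kb of the longest transcript. Which isoforms the cells made cannot be read from counts per gene.

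**Figure D2:**
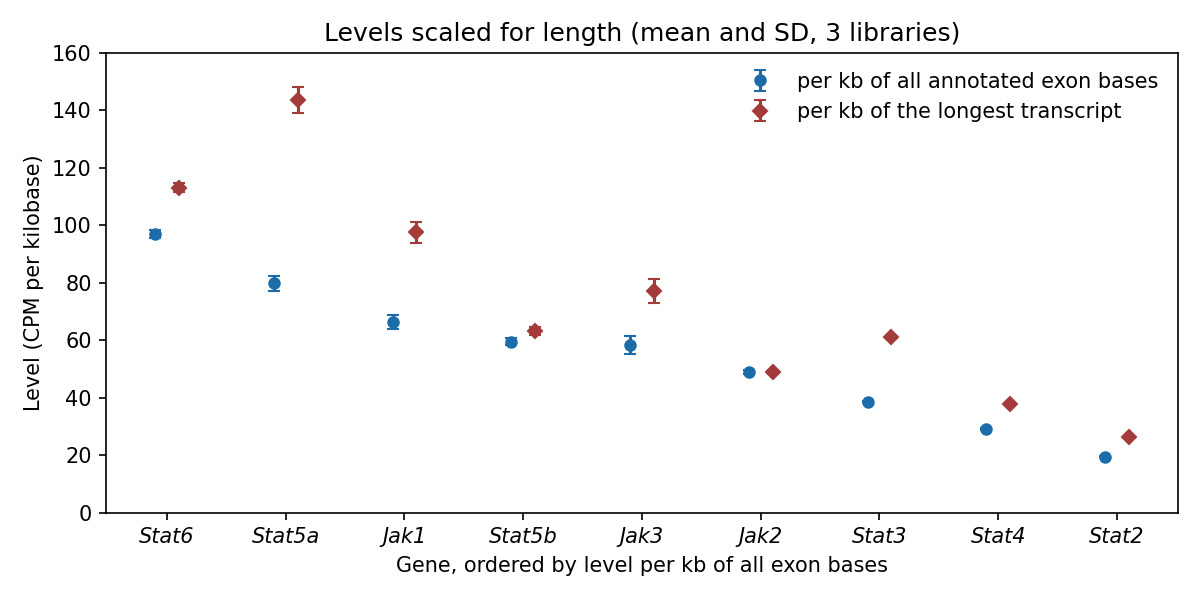
Mean level and SD over the 3 libraries (vertical axis, CPM per kilobase, from 0) for each gene, scaled by all annotated exon bases (circles) or by the longest transcript (diamonds). Stat6 leads on the first scale at 97.0 and Stat5a on the second at 143.7 CPM per kb, and Stat4 and Stat2 are lowest on both.

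Within the 6 STAT genes, the composition per kilobase of all exon bases was steady. Stat6 made up 30.0 ± 0.644% (SD, n = 3), Stat5a 24.6 ± 0.615%, Stat5b 18.4 ± 0.299%, Stat3 11.9 ± 0.0621%, Stat4 9.0 ± 0.165% and Stat2 6.03 ± 0.0507% of their summed level. The sum itself was 325.7, 321.0 and 324.1 CPM per kb in replicates 1, 2 and 3. Within the 3 JAK genes, Jak1 made up 38.2 ± 1.31%, Jak3 33.6 ± 1.73% and Jak2 28.2 ± 0.491%. The 3 kinases summed to 172.4, 176.0 and 172.3 CPM per kb in replicates 1, 2 and 3, of which Jak3 took 31.8, 33.8 and 35.3%.

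Ratios were formed for 7 pairs of members. Per kilobase of all exon bases Stat5a exceeded Stat5b 1.34-fold (log2 ratio 0.42 ± 0.03, SD, n = 3), and per kilobase of the longest transcript 2.27-fold. Stat6 exceeded Stat4 3.33-fold (1.74 ± 0.02), and Stat5a exceeded Stat3 2.06-fold, given as a log2 ratio of Stat3 to Stat5a of -1.04 ± 0.04. Stat2 lay below Stat3 with a log2 ratio of -0.99 ± 0.01. Among kinases Jak1 exceeded Jak2 1.35-fold (0.43 ± 0.03) and Jak3 1.14-fold (0.18 ± 0.12), and Jak3 exceeded Jak2 1.19-fold (0.25 ± 0.10). For the read counts, each of the 7 ratios had the same sign in 3 of 3 libraries. A two-sided exact sign-flip permutation test gave p = 0.25 for each, raw and adjusted. With 3 libraries no smaller p can be had, so the test could not reach the threshold of 0.05.

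The share of one gene in the reads of a pair does not depend on length when libraries are compared. Stat5a made up 63.9% of the Stat5a and Stat5b reads in replicate 1 (exact Clopper-Pearson 95% interval 63.1 to 64.6%). In replicate 2 it was 63.2% (62.3 to 64.1%) and in replicate 3 62.8% (62.0 to 63.6%), so the intervals overlapped. Jak1 made up 62.6% of the Jak1 and Jak3 reads in replicate 1 (61.8 to 63.4%). Replicate 2 had 60.5% (59.5 to 61.4%) and replicate 3 58.5% (57.6 to 59.4%). These 3 intervals were separate. Jak3 made up 54.0% of the Jak3 and Jak2 reads in replicate 1 (53.1 to 55.0%), below 56.3% in replicate 2 (55.1 to 57.4%) and 57.3% in replicate 3 (56.2 to 58.4%), and the interval of replicate 1 was separate from both others. Stat6 made up 78.9, 79.1 and 79.3% of the Stat6 and Stat4 reads, with intervals that overlapped.

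**Figure D3:**
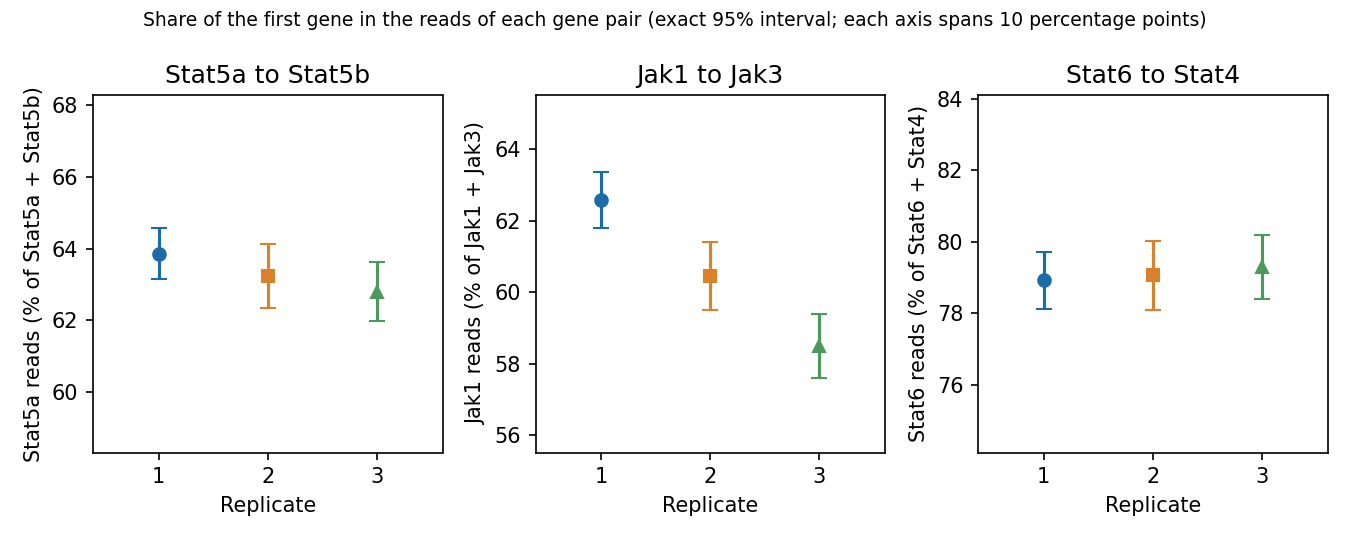
Share of the first gene in the reads of each pair (vertical axes, percent, each spanning 10 percentage points and not starting at 0) in replicates 1, 2 and 3, with exact 95% intervals. The Jak1 share falls into 3 separate intervals around 62.6, 60.5 and 58.5%, and the intervals overlap for the Stat5a to Stat5b and the Stat6 to Stat4 pair drawn here.

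Whether the libraries differed beyond counting error was tested over the 13500 genes that reached 1 CPM in 2 or more libraries, with edgeR's likelihood-ratio test at dispersion 0 and Benjamini-Hochberg adjustment. The test compares these libraries and not conditions. It called 3 of the 9 members, against 13.7% of all genes tested and 33.9% of the 2570 genes of at least 100 CPM, where the test has more reads to work with. The members' 33.3% is close to the latter share. The 3 were Jak3 (adjusted p = 2.071e-06, range between libraries 0.16 log2 units), Jak1 (adjusted p = 0.003487, range 0.09) and Stat5a (adjusted p = 0.004232, range 0.09). The library that stood apart was replicate 1 for Jak3 and replicate 3 for Jak1, where each was low. For Stat5a replicate 1 was highest and replicate 2 lowest, with replicate 3 between them.

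The other 6 did not pass, with adjusted p = 0.2337 for Stat5b, 0.3104 for Stat6 and 0.7404 to 0.9321 for Jak2, Stat2, Stat3 and Stat4 in the same edgeR test. Stat3 had a range of 0.01 log2 units, whereas the 229 tested genes of like level (within 0.25 log2 units of its CPM) had a median range of 0.07. For Jak3 the median over 275 genes of like level was 0.08. The ranges of Stat5a (0.0875) and Jak1 (0.0897) lay nearer to the medians of their like-level genes, 0.0681 and 0.0706 log2 units. The calls of Jak3 and Jak1 each rested on 1 library, and that of Stat5a on the difference between replicates 1 and 2. Without replicate 1 the edgeR adjusted p was 0.3339 for Stat5a and 0.54 for Jak3, and Jak1 remained the only member called. Without replicate 3 that of Jak1 was 0.889, and without replicate 2 that of Stat5a was 0.1414.

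The rest of the pathway was described by role, from lists of ligands, receptors, inhibitors, phosphatases and genes known as targets of each STAT. Of 109 distinct genes in the table, 88 had a mean of at least 1 CPM (30.2% of all symbols did) and 22 a mean of at least 100 CPM. Of the 88 tested, 14 varied between the libraries, or 15.9%, near the 13.7% of all genes tested. Of the 22 genes of at least 100 CPM, 11 varied, against 33.9% of all genes at that level. Counts of varying genes in the lists below are to be read against these background shares. Levels in CPM depend on length, so lists and genes were set against each other per kilobase of all exon bases, on which scale the genes of at least 1 CPM had a median of 8.26 CPM per kb. The longest transcript was not used for the list genes, so the orders below hold for this length only.

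Cytokine genes were low, with a median of 0.572 CPM per kb. Of 23 ligands 11 reached 1 CPM and 0 reached 100 CPM. Of the 11 tested with edgeR between the libraries 0 were called, and 1 had an unadjusted p under 0.05. Lif, a cytokine of the IL-6 family, was at 55.3 ± 0.442 CPM, Il2 at 22.4 ± 2.26 CPM and Ifng, interferon gamma, at 15.6 ± 1.05 CPM. No read of Il7, Il9 or Ifnb1 was found, which at 3 counts per library leaves room for levels of up to 0.158 CPM in replicate 1, 0.237 CPM in replicate 2 and 0.204 CPM in replicate 3.

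Receptor genes had a median of 9.42 CPM per kb, with 24 of 29 at 1 CPM or more and 9 at 100 CPM or more, and 3 of the 24 tested varied between the libraries. The 3 with the most reads were the chains of the IL-2 receptor, whose beta and gamma chains bind Jak1 and Jak3. Per kilobase of all exon bases the gamma chain Il2rg stood at 192.8 ± 3.32, the alpha chain Il2ra at 142.8 ± 3.36 and the beta chain Il2rb at 120.1 ± 5.94 CPM per kb, each above the 58.3 ± 3.11 CPM per kb of Jak3 and the 66.2 ± 2.47 CPM per kb of Jak1. Il2ra had 793.6, 823.9 and 829.2 CPM and Il2rb 511.9, 491.1 and 541.8 CPM, and both varied between the libraries (edgeR adjusted p = 0.001235 and 1.791e-07). No read was found for Lifr, Osmr or Il22ra1, receptor chains for LIF, oncostatin M and IL-22.

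All 13 feedback inhibitors reached 1 CPM, with a median of 7.25 CPM per kb, and 3 of them varied. The one gene among them at 100 CPM or more was Cish, a SOCS family gene that STAT5 induces, with 436.5, 466.4 and 470.6 CPM and an edgeR adjusted p of 1.499e-05 between the libraries. Replicate 1 was the lowest for Cish. The next in reads were Pias2, an inhibitor of the PIAS family, at 73.7 ± 1.45 CPM, and the adaptor Sh2b3 at 67.9 ± 2.73 CPM. Of the 6 phosphatases that act on JAKs or STATs 4 reached 100 CPM and 1 varied. The 3 with the most reads were Ptprc (CD45) at 1705 ± 11.1 CPM, Ptpn6 (SHP-1) at 436.4 ± 10.8 CPM and Ptpn1 at 245.9 ± 6.74 CPM.

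The STAT5 list had the highest median of the 5 target lists, 33.8 CPM per kb. All 13 genes reached 1 CPM and 7 reached 100 CPM. The first 3 in reads were the G1 cyclin Ccnd2 (881.6 ± 50.7 CPM), Il2ra (815.6 ± 19.2 CPM) and the survival kinase Pim2 (556.7 ± 19.4 CPM). In edgeR's test 6 of the 13 varied between the libraries, all of them among the 7 of at least 100 CPM, against 33.9% of all genes at that level. Of the 12 T cell markers, which are all at that level too, 8 varied. The 6 were Ccnd2, Il2ra, Pim2, Cish, Pim1 and Foxp3. Of these, 5 were lowest in replicate 1 and highest in replicate 3, an order that 22.3% of the 870 varying genes of at least 100 CPM had. Ccnd2 was the exception, lowest in replicate 3 at 825.8 CPM and highest in replicate 2 at 925.0 CPM. Jak3 had the order of the 5 genes, while Stat5a was highest in replicate 1. The order was picked after these values were seen, so setting it beside the 22.3% is no test of a shared pattern.

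**Figure D4:**
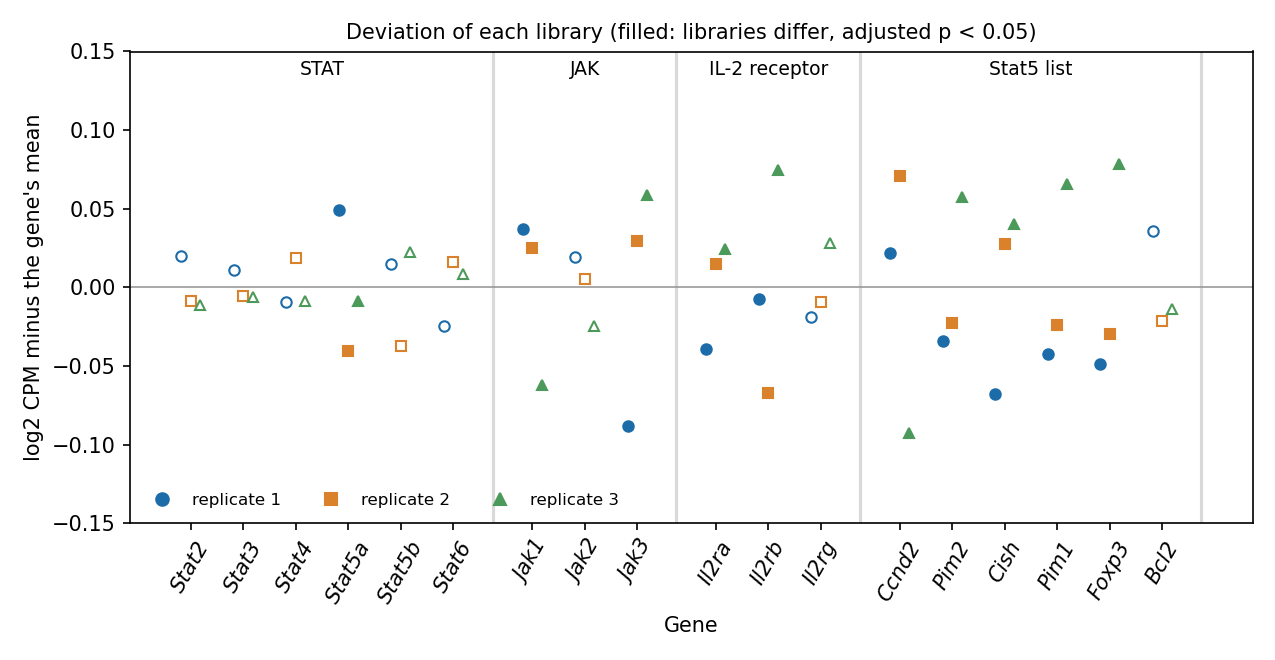
Log2 CPM of each library minus the gene's mean over the 3 libraries (vertical axis) for the STAT genes, the JAK genes, the chains of the IL-2 receptor and the STAT5 list genes of at least 100 CPM, with Il2ra drawn once. Filled symbols mark genes called in edgeR's test. Jak3, Il2ra, Pim2, Cish, Pim1 and Foxp3 have replicate 1 lowest and replicate 3 highest, and so does Il2rg, which was not called.

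The lists of the other STATs had lower medians. They were 15.1 CPM per kb for the 8 genes of the STAT6 list, 8.06 for the 7 of the STAT4 list, 3.71 for the 10 of the STAT3 list and 3.04 CPM per kb for the 12 interferon targets that STAT2 serves. Between the libraries 0 of 7 tested genes of the STAT6 list varied (1 at an unadjusted edgeR p under 0.05), and 1 gene of each other list did. The genes with the most reads were Il4ra (388.3 ± 8.97 CPM), the repressor Gfi1 (80.2 ± 4.02 CPM) and the chemokine receptor Ccr4 (70.1 ± 2.25 CPM) for STAT6, and the AP-1 gene Junb (138.7 ± 7.95 CPM), the factor Maf (34.5 ± 2.31 CPM) and Batf (32.7 ± 1.16 CPM) for STAT3. For STAT4 these were the protease Furin (107.9 ± 7.38 CPM), the Th1 regulator Tbx21 (84.8 ± 3.03 CPM) and the IL-12 receptor chain Il12rb2 (30.6 ± 2.21 CPM). For STAT2 these were its partner Irf9 (131.0 ± 1.40 CPM), the antiviral tetherin gene Bst2 (55.7 ± 2.42 CPM) and Irf7 (24.4 ± 1.40 CPM). Per kilobase of all exon bases Irf9 (24.3 ± 0.259) stood above Stat2 (19.5 ± 0.232 CPM per kb). Per kilobase of the longest transcript Stat2 was at 26.3 CPM per kb, and Irf9 was not scaled that way. Il24 of the STAT6 list had no read.

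Promoter windows of the members were searched for the sites that STAT complexes bind. The windows run from 250 bases before to 50 bases after a transcript start (RefSeq, GRCm38.p6), and all 9 genes matched, with 12 windows. The STAT dimer site TTCNNNGAA, which reads the same on both strands, occurred in 0 of the 12 and in 8.30% of all 32851 windows. The core of the interferon-stimulated response element, searched as TTTC, any 2 bases and TTTC on either strand, with no overlap required with the first site, occurred in 2 of the 12 and in 3.44% of all windows. The matches were in the window of Stat2 and in the second window of Stat4. Both are shown up to the transcript start, with the match in capitals, since Stat2 is itself a part of the complex that binds this element.
Stat2, chr10:128270248-128270497, plus strand: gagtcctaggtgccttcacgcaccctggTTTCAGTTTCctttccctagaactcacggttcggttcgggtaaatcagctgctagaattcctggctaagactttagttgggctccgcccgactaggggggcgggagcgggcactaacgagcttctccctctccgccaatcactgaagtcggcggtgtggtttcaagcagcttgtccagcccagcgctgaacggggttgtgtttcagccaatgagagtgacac
Stat4, chr1:52007990-52008239, plus strand: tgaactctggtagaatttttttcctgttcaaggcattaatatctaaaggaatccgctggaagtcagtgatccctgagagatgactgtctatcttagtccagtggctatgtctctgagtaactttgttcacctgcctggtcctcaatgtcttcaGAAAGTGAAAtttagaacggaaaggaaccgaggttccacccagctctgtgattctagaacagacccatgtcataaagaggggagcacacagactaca
In Stat2 the match lies 222 to 213 bases before the start, and in Stat4 97 to 88 bases before the second start. A match is a sequence only and not evidence of binding.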

How the data were processed

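The single file used holds raw counts of reads, which the authors deposited by gene symbol, with a column per library. Per the submitters' processing notes the build was mm10. Aligner, counting tool, annotation and use of strand: not given in the sources used here.

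CPM is a count divided by the library total times 1000000. With 1 group there is no contrast for edgeR's quasi-likelihood test. The libraries were instead compared by a likelihood-ratio test in edgeR 4.0.16, run on 13500 genes with TMM factors, the dispersion set to 0, Benjamini-Hochberg adjustment and a threshold of 0.05. Tested on simulated Poisson counts for these 13500 genes, in which 1 library was altered, it found 82 of 100 genes at 1.5-fold, 83 of 100 at 2-fold and 7 unaltered genes. Smaller alterations, such as the members' ranges of at most 0.16 log2 units, were not simulated. Ratios had 0.5 added to each count. Lengths, positions and shared 31-base words came from GENCODE vM21 (GRCm38), and 32141 of 44788 symbols had a length. Target lists were written from general knowledge. Members and lists were chosen with earlier results of these data known. Named were all members, the 3 genes with the most reads in each list, list genes without a read, genes overlapping a member, and the nearest genes by pattern. Other names (the varying STAT5 list genes, Pecam1, Cd68, Eomes, Zbtb46, Itga2b and the marker genes without a read) were chosen after their values were seen. A planned comparison of protein sequences was not made, and coding sequences of Stat5a and Stat5b were compared instead. Alternatives were DESeq2 1.42.0 size factors, library totals, other filters, another length, another added count and leaving out each library. Software was Python 3.11.15 (scipy 1.17.1, pandas 2.3.3, numpy 2.4.6), matplotlib 3.10.9 and R 4.3.3.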

Additional observations from a re-analysis of the deposited data

How the results depend on the processing

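No paired analysis was possible because there is 1 group only. DESeq2 size factors, library totals and both other filters left 1677 to 1855 genes varying, against 1847, and the same 3 members (Stat5a, Jak1 and Jak3) called. With a library left out, 740 to 1206 genes and 1 to 2 members were called. The members were Jak1 without replicate 1, Jak1 and Jak3 without replicate 2, and Stat5a and Jak3 without replicate 3. Fewer counts remain then, but the number of genes did not follow depth alone. Without replicate 1, the deepest library, 1121 genes were called, and without replicate 3 only 740 were. Mean CPM of each member moved by less than 1 SD with TMM effective library sizes and with DESeq2 size factors. Both were scaled so that they average out over the libraries, which leaves a mean nearly unchanged. Leaving out 1 of 3 libraries cannot move a mean by 1 SD. Neither comparison is therefore a check of the mean level. Scaled by the longest transcript, the level per kb became 26.3 for Stat2, 61.0 for Stat3, 37.8 for Stat4, 143.7 for Stat5a, 63.3 for Stat5b, 113.1 for Stat6, 97.5 for Jak1 and 77.1 for Jak3, because these lengths are shorter, while that of Jak2 was unchanged. All 7 ratios kept their sign with 0.1 added to each count and per kilobase of either length. Depth limits the calls, since Stat2 and Stat4 have about 1447 to 2230 reads per library and a difference under their counting error cannot be seen.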

Other observations

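Over the 3 libraries, likeness of pattern was measured as the Euclidean distance between log2 CPM values centred on each gene's mean, among genes of at least 100 CPM. Nearest to Stat5a were BC005537 (distance 0.0032 log2 units), Ppp2r4 (0.0056) and Rab3gap1 (0.0069). Nearest to Jak1 were Ddx3x (0.0011), Cd164 (0.0014) and Man1a (0.0026). Of the 2569 genes compared, 345 lay within 0.05 log2 units of Stat5a and 522 within that distance of Jak1, so 3 libraries of 1 condition do not set these genes apart.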
